A study of Rattus norvegicus with 88 samples.

Results

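ENSRNOG00000049056 is a gene of the infralimbic cortex (IL) expression table whose level fell into graded groups among rats while every rat expressed it. It is 1 of the 17252 genes in the table. The gene was chosen by its distribution over the 81 rats, with several peaks between about 9.8 and 11.4 on the log2 scale, so the number, position and size of its groups are given here as a description with no test. The table identifies genes by Ensembl identifier alone, and the RefSeq table used here matched 0 of the 17252 identifiers, so no symbol, function, genome position or sequence is attached to the gene. For the same reason the labelled tissue was not checked against marker genes.

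The rats were Heterogeneous Stock (HS) rats, an outbred population bred from inbred founder strains, and all were naïve to drug and behavioral treatment. The IL, a part of the medial prefrontal cortex, was dissected from both hemispheres of each rat, and its polyadenylated RNA gave 1 library. Of 88 labelled libraries, 7 were marked as removed by the authors, which left 81 libraries from 40 females and 41 males. They came from 5 rat batches, of 16 rats (batch 2), 25 (batch 3), 24 (batch 4), 1 (batch 5) and 15 (batch 6). The columns of the table ran through 3 stretches in ascending order of name, called column runs below, of 22, 16 and 43 libraries, whose meaning no label gives. Batches 4 and 6 lay wholly in run 3, 15 of the 16 rats of batch 2 lay in run 1, and batch 3 had 7, 15 and 3 rats in runs 1, 2 and 3.

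In an outbred diploid population, a regulatory variant near a gene usually acts on the copy it sits on. A rat then carries no, 1 or both copies of the more active allele. When the copies act independently, the transcript output of the heterozygote lies midway between those of the homozygotes on a linear scale, and on a log scale it lies nearer to the higher one. Under random mating, the share of an allele fixes how many rats of each genotype to expect. Genotypes were not analysed here, and the classes below are classes of expression level, not genotypes.

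Values are on a log2 scale with 1 added before the logarithm, and the read count behind them, scaled by its upper quartile and brought back to the linear scale, is called the adjusted count. ENSRNOG00000049056 had a lowest value of 9.75, a median of 10.42 and a highest value of 11.43 over the 81 rats, which correspond to 861, 1367 and 2758 adjusted counts. The highest rat therefore had 3.20 times the count of the lowest, and no rat was near 0. The gene was well expressed, with a mean value above that of 83.6% of all genes in the table. In bulk tissue, fewer cells expressing the gene and less RNA per cell cannot be told apart.

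The spread of the gene was wider than that of most genes. After adjustment for rat batch and sex its SD was 0.44 on the log2 scale, against a median of 0.19 over the 13048 genes with a mean value of at least 5, and 6.32% of these genes had a larger SD. Counting error was far smaller. Depth, read from the spacing of the low values of each library, had a median of 17.5 M reads on genes (M, mega-reads), and at these depths the counting SD of this gene was 0.038 at the median rat and 0.070 at the shallowest.

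The values gathered around 2 main peaks with a tail above them. The bin from 10 to 10.1 held 14 rats, the fullest of the 0.1-wide bins, and the bin from 10.8 to 10.9 held 10. Between the peaks, the bins from 10.2 to 10.3 and from 10.3 to 10.4 held 2 rats and 1 rat. Above 11 there were 6 rats. No wide empty range separated the peaks over all rats: the largest gap between neighbouring values, 0.14, lay between 11.23 and 11.37 inside the tail, the next, 0.11, lay between 10.97 and 11.08 at its foot, and the gap between the lower and the upper peak, from 10.33 to 10.42, was 0.08.

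The number of modes was read from Gaussian mixtures with 1 to 6 components, scored with the Bayesian information criterion (BIC), which rewards fit and penalizes parameters and is given so that a higher value is better. With a common SD, 3 components had the best BIC, -80.65, followed by 2 components with -84.24 and 4 with -89.43. A single component had -106.19. The 3 components had means of 10.03, 10.76 and 11.24, a common SD of 0.15 and shares of 50.02% and 42.98% in the low and middle components, with the rest in the high one. When each component was allowed its own SD, the best BIC fell on 2 components (-75.41), a narrow one at 10.01 with an SD of 0.12 and a broad one at 10.79 with an SD of 0.26, which took in the tail. On the linear scale of adjusted counts the best BIC fell on 5 components with a common SD (-1211.96) and on 2 with unequal SDs (-1189.15), the higher of these scores. The split of the rats near 10.4 was thus shared by the 2-component and 3-component fits to log2 values, whereas the division of the upper peak into a middle and a high mode depended on the form of the mixture.

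**Figure D1:**
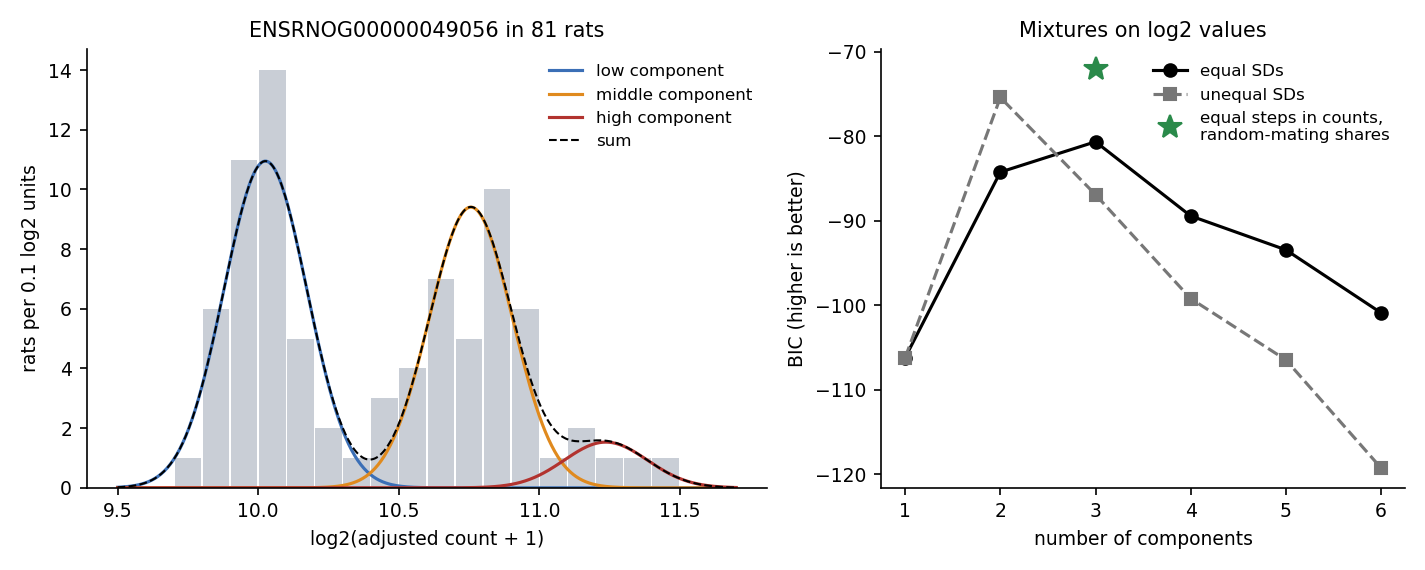
Left, rats per 0.1 log2 units of ENSRNOG00000049056 (gray bars, 81 rats) with the 3 components of equal SD (colored lines) and their sum (dashed); the low and middle components stand at 10.03 and 10.76 and the high component at 11.24 forms a shoulder. Right, BIC against the number of components, highest at 3 for equal SDs and at 2 for unequal SDs, with the star at -72.06 for the 3 components of equal steps described in the text.

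Each rat was assigned to the component of the 3-component mixture with the highest posterior probability. The low class held 40 rats (49.4%, 95% exact binomial interval 38.1% to 60.7%), the middle class 35 rats (43.2%, 32.2% to 54.7%) and the high class 6 rats (7.41%, 2.77% to 15.4%). The intervals cover the sampling of rats and not the uncertainty of the assignment. With the mixture drawn on residuals after rat batch and sex, the classes held 40, 38 and 3 rats, and 76 of the 81 rats stayed in their class. The posterior probability was under 0.9 for 5 rats, which lay between 10.33 and 11.17, next to the boundaries. Taking the classes as 0, 1 and 2 copies of a high allele, that allele would have a share of 29.0%, and random mating at this share would give 40.8, 33.4 and 6.82 rats. The observed sizes of 40, 35 and 6 were within 2 rats of each. The share was taken from these same sizes, so the closeness is in part built in. The expected sizes were not compared with the 40, 38 and 3 rats of the classes on residuals.

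The low class ranged from 9.75 to 10.33 with a median of 10.02. The middle class ranged from 10.42 to 10.97 with a median of 10.78. The high class was made of 6 rats at 11.08, 11.17, 11.18, 11.23, 11.37 and 11.43. By construction the classes do not overlap. The within-class SDs were similar, at 0.13 (n = 40), 0.16 (n = 35) and 0.13 (n = 6), and the pooled within-class SD of 0.14 was well above the median counting SD of 0.038. The 3 classes together held 89.9% of the variance of the gene, which follows in part from their being drawn on its values. Depth overlapped between them, at 18.5 ± 5.45 M reads (SD, n = 40), 17.8 ± 2.41 M (SD, n = 35) and 17.2 ± 3.51 M (SD, n = 6). The depth of 1 low rat lay at the edge of the range searched and is uncertain. In another 6 rats the low values showed no spacing, and 1 read was taken as worth about 1 adjusted count; without these rats the median depth was 17.03 M reads.

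Spacing against an additive dose was compared on both scales. In adjusted counts the class means were 1041 ± 93.8 (SD, n = 40), 1727 ± 187 (SD, n = 35) and 2431 ± 226 (SD, n = 6). The step from low to middle was 686 counts with a standard error of 34.8, and the step from middle to high was 703 counts with a standard error of 97.6. The midpoint of the outer classes was 1736 counts. The middle class thus lay -0.013 ± 0.081 (SE) of the way from the midpoint to an outer class, where 0 is the midpoint and 1 the high class. On the log2 scale the steps were unequal, 0.73 with a standard error of 0.034 and 0.50 with a standard error of 0.060, and the same offset was 0.19 ± 0.070 (SE). This spacing depended on the mixture. With unequal SDs the upper 2 of 3 components shared nearly the same mean, 10.77 and 10.79, the classes held 39, 24 and 18 rats, and the offset in adjusted counts was 1.09 ± 0.23 (SE), at the high class. After removal of the first 20 expression components, added after the data were seen, 1 component had the best BIC. The 3 classes redrawn there held 7, 56 and 18 rats, with 32 of the 81 rats in their earlier class. Their offset was -0.24 ± 0.076 (SE). The classes drawn before this step then stood at -0.23, 0.20 and 0.33 on the log2 scale. Their middle class was nearer to the high one. The standard errors hold the class boundaries fixed, and the boundaries were drawn from the same values.

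The ratios between classes can be read as a ratio between alleles. The middle class had 1.66 times the low class and the high class 2.33 times the low class. If the middle class carried 1 copy of each allele, its ratio would put the high allele at 2.32 times the low allele in output. The ratio of the outer classes put it at 2.33 times. Both values come from the same class means and are equal whenever the middle mean lies at the midpoint of the outer means. Their closeness therefore restates the offset in adjusted counts, is no separate result, and depends on the mixture as that offset does.

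**Figure D2:**
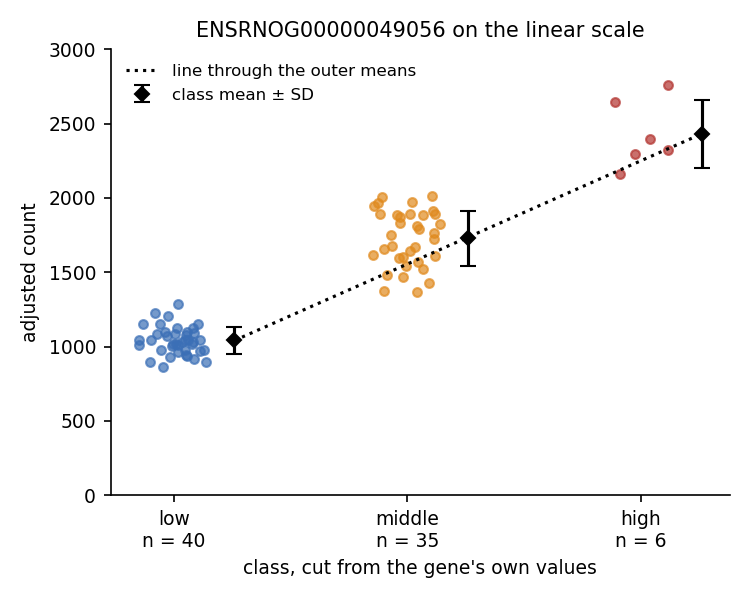
Adjusted count of ENSRNOG00000049056 in each rat by class (points, 40, 35 and 6 rats), with class means ± SD (diamonds). The dotted line joins the means of the low and high classes, 1041 and 2431, and passes within the SD of the middle class at 1727.

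Mixtures restricted to these patterns, added after the data were seen, were then scored on the same values without assigning any rat to a class. A mixture with random-mating shares, a common SD and equal steps in adjusted counts, which has 4 parameters, had a BIC of -72.06. This was above the unrestricted 3-component mixture with 6 parameters (-80.65) and above the 2-component mixture with unequal SDs (-75.41). It placed the low class at 1042 adjusted counts and each further copy at 683 counts, with an allele share of 28.6%. Equal steps in log2 gave -79.64, and a middle class equal to the high class, as for a fully dominant allele, gave -84.24. The last is the same as the 2-component mixture with a common SD. With an SD for each component, that shape is the 2-component mixture at -75.41. The mixtures of equal steps were not scored with unequal SDs. These scores rank descriptions of the values that led to the choice of the gene and are no test.

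Set beside all 13048 genes with a mean value of at least 5, after adjustment for rat batch and sex, 87.3% were best described by 1 component, 10.9% by 2 and 1.56%, or 204 genes, by 3. For ENSRNOG00000049056 the best number stayed at 3, with a BIC of -68.06 against -69.00 for 2 components and -97.68 for 1. The gain over 1 component was thus nearly the same with 2 components as with 3. With 3 components it was 29.6, and 0.65% of the genes had a larger gain. Since the gene was chosen for its modes, this share only places it.

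The relation to rat batch was tested over the whole table. Batch 2 had a mean of 10.61 with an SD of 0.50 (16 rats), batch 3 a mean of 10.50 with an SD of 0.46 (25 rats), batch 4 a mean of 10.23 with an SD of 0.41 (24 rats) and batch 6 a mean of 10.41 with an SD of 0.34 (15 rats). The rat of batch 5 was at 10.57. The ranges of all 4 larger batches overlapped. Over batches 2, 3, 4 and 6 (80 rats, sex as a covariate), limma's moderated F test did not pass the threshold (adjusted p-value 0.082, Benjamini-Hochberg over 17252 genes), in a table where 57.6% of genes passed it. Of the 6 pairs of batches, 1 passed: batch 4 was lower than batch 2 by 0.36 ± 0.14 (SE; adjusted p-value 0.032 with limma), and 37.9% of genes passed in that pair. With column run added to the model, the sign changed and the call was lost. Batch 4 was then higher than batch 2 by 0.091 ± 0.32 (SE; adjusted p-value 0.968 with limma), and 0% of genes passed in that pair. With inverse normal values per gene, the transformation used in the study for mapping, the adjusted p-value over the 4 batches was 0.0057 (limma).

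All 4 larger batches held both main classes. The low class made up 7 of 16 rats in batch 2, 12 of 25 in batch 3, 15 of 24 in batch 4 and 6 of 15 in batch 6. The middle class held 6, 11, 8 and 9 of these rats and the rat of batch 5. The high class held 3 rats of batch 2, 2 of batch 3 and 1 of batch 4, and none of the 15 rats of batch 6. In batch 2 the classes stood well apart: the low class ended at 10.26 and the middle class began at 10.84, an empty range of 0.58. In batches 3, 4 and 6 the empty range was 0.18, 0.19 and 0.29.

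Column run was compared in the same way. Run 1 had a mean of 10.625 ± 0.49 (SD, n = 22), run 2 10.48 ± 0.44 (SD, n = 16) and run 3 10.30 ± 0.39 (SD, n = 43). With rat batch and sex in the model, the difference between runs did not pass the threshold (adjusted p-value 0.469 with limma, 80 rats), against 16.8% of all genes that did. In simulated data this test recovered few of the planted changes. In this model run 3 was lower than run 1 by 0.46 ± 0.29 (SE; adjusted p-value 0.438 with limma), where 2.34% of genes passed. Within batch 3, the only batch found in all runs, the means were 10.71 ± 0.46 (SD, n = 7), 10.46 ± 0.44 (SD, n = 15) and 10.20 ± 0.48 (SD, n = 3), and the adjusted p-value was 0.442 (limma, 25 rats). Without rat batch in the model, run 3 was lower than run 1 by 0.32 ± 0.11 (SE; adjusted p-value 0.013 with limma), where 45.9% of genes passed. Batch and run overlap so far that their parts in this difference cannot be told apart.

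Both main classes were present in each run. Low, middle and high rats numbered 9, 9 and 4 in run 1, 8, 7 and 1 in run 2, and 23, 19 and 1 in run 3. The positions of the classes differed between runs, compared without rat batch. Run 1 held only batches 2 and 3 and run 3 mostly batches 4 and 6, so run and batch cannot be told apart here. The class boundaries were the same in all runs, which limits how far the class means can move. The low class had a mean of 10.11 in run 1, 10.06 in run 2 and 9.97 in run 3, and the middle class 10.84, 10.88 and 10.65. From run 1 to run 3 the low class fell by 0.14 (standard error 0.047, 9 and 23 rats) and the middle class fell by 0.19 (standard error 0.062, 9 and 19 rats). In run 2 no rat lay between 10.17 and 10.79, an empty range of 0.61. Such a range cannot be narrower in a subset of the rats than in all of them. In run 1 the range between the classes was 0.15. In run 3 it was 0.09, bounded below by the rat at 10.33, whose library was the shallowest of the 81 with 5.89 M reads; without it the range was 0.29. The part of its depth in that value was not tested.

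**Figure D3:**
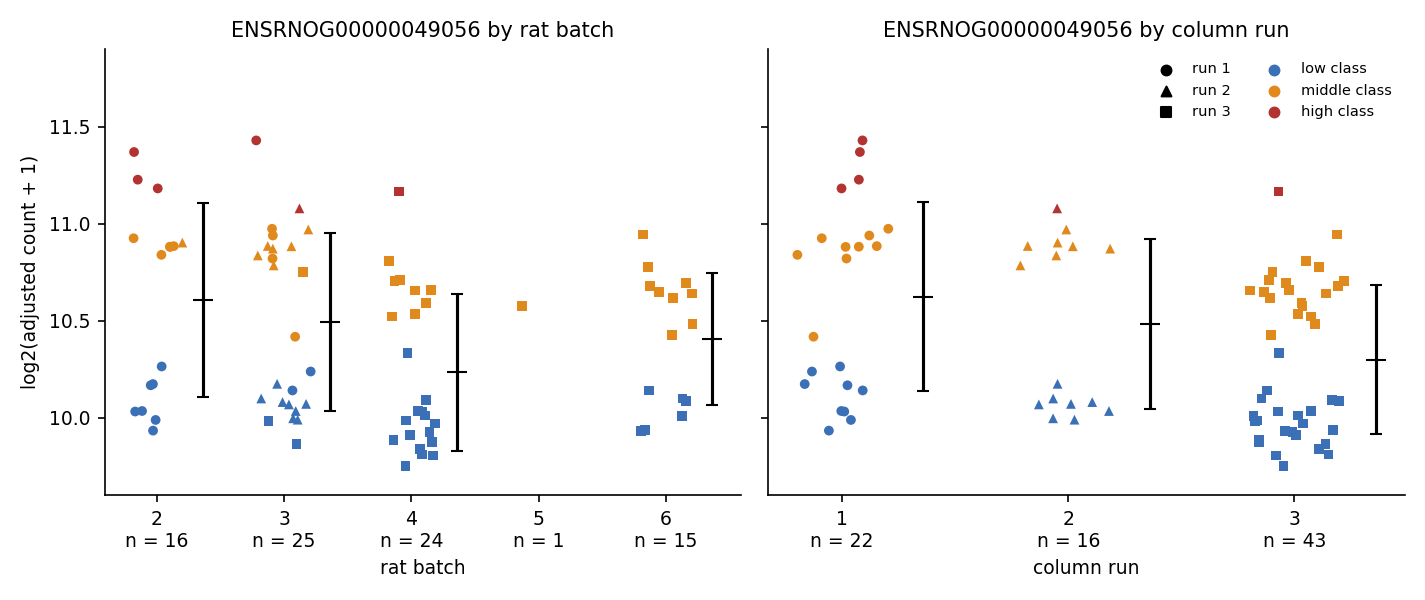
Log2 value of ENSRNOG00000049056 in each rat by rat batch (left) and column run (right), colored by class, with the column run as the marker shape and the mean ± SD beside each group of more than 1 rat. Low and middle rats occur in every batch but batch 5, which holds 1 rat. The rats of run 3 (squares), mostly of batches 4 and 6, sit lower on average within both classes than those of run 1 (circles).

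The levels of the sexes overlapped widely. Females had a mean of 10.39 ± 0.42 (SD, n = 40) and males 10.46 ± 0.47 (SD, n = 41). With rat batch as a covariate, males were higher by 0.036 with a 95% confidence interval from -0.16 to 0.23 (adjusted p-value 0.965 with limma), and 0.197% of genes passed this test. The low class held 19 females and 21 males, the middle class 20 and 15, and the high class 1 and 5. The difference between the sexes was not shown to vary with rat batch (limma interaction test, adjusted p-value 0.996).

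Likeness to ENSRNOG00000049056 was measured by the Pearson correlation of residuals after rat batch and sex over the 81 rats, for the other 13047 genes with a mean value of at least 5. The points share library, depth and any common variation of the libraries, and the correlations are descriptions. The median absolute correlation was 0.13 and the 99th percentile 0.41. An absolute correlation of at least 0.5 was reached by 7 genes (0.0537%), of which 1 was positive and 6 were negative. This count was 11 without the library of lowest depth, 33 by Spearman correlation and 44 without covariates, and 28, 49 and 15 without rat batch 3, 4 and 6. The strongest, -0.67, was near the middle of what other genes had: the median gene had a strongest partner at 0.70, and 56.0% of genes had a stronger one than this gene. The genes named by rule were the 2 most positive, ENSRNOG00000022586 and ENSRNOG00000021732, and the 2 most negative, ENSRNOG00000048676 and ENSRNOG00000011884.

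ENSRNOG00000048676 was the most negative, with a correlation of -0.67. In adjusted counts it had 141 ± 32.2 (SD, n = 40) in the low class, 107 ± 21.3 (SD, n = 35) in the middle class and 77.2 ± 20.4 (SD, n = 6) in the high class. Its values thus went down as those of ENSRNOG00000049056 went up, in steps of -33.8 counts (standard error 6.24) and -29.7 counts (standard error 9.06). On the log2 scale its values ran from 6.51 to 7.86 in the low class, 6.15 to 7.23 in the middle class and 5.95 to 6.86 in the high class, so the classes overlapped. The classes held 42.1% of its variance, the largest share among the 13047 genes, for which the median share was 3.37%. Within classes the correlation was -0.14 among the 40 low rats, -0.076 among the 35 middle rats and -0.87 among the 6 high rats. The classes are cut from the values of ENSRNOG00000049056, whose SD was 0.13 to 0.16 within them and 0.44 over all rats. A narrower range by itself lowers a correlation. The within-class values, here and for the genes below, thus cannot tell following the class from following the level. Its steps were far smaller in counts than those of ENSRNOG00000049056, and the sum of both genes rose over the classes, at 1182 ± 97.7 (SD, n = 40), 1834 ± 179.5 (SD, n = 35) and 2508 ± 217 (SD, n = 6). This gene itself was best described by 1 component.

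ENSRNOG00000011884 had a correlation of -0.56. It was expressed at a level like that of ENSRNOG00000049056 itself, with 1538 ± 107 (SD, n = 40), 1438 ± 111 (SD, n = 35) and 1285 ± 129 (SD, n = 6) adjusted counts in the low, middle and high classes. Its range over classes was narrow, a ratio of 0.84 between the high and the low class. The classes held 31.7% of its variance. Within classes the correlation was -0.11 among the low rats, -0.22 among the middle rats and 0.18 among the 6 high rats.

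ENSRNOG00000022586 was the most positive, with a correlation of 0.55. Its adjusted counts were 1617 ± 196 (SD, n = 40), 1766 ± 180 (SD, n = 35) and 1989 ± 256 (SD, n = 6) in the 3 classes, a ratio of 1.23 between the high and the low class. The classes held 23.5% of its variance. The correlation was 0.071 among the low rats, 0.40 among the middle rats and -0.48 among the 6 high rats.

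ENSRNOG00000021732, with a correlation of 0.49, showed another pattern. Its means were 541 ± 68.2 (SD, n = 40), 584 ± 66.9 (SD, n = 35) and 647 ± 62.4 (SD, n = 6) adjusted counts. Its correlation was larger within the low class, 0.61 over 40 rats, than over all rats. It was 0.25 in the middle class and -0.22 among the 6 high rats, and the classes held 17.5% of the variance of this gene. After removal of the first 20 principal components of the table, its correlation fell to 0.070, whereas that of ENSRNOG00000048676 was -0.80, that of ENSRNOG00000011884 -0.51 and that of ENSRNOG00000022586 0.54. This alternative was added after the data were seen. Over all settings tried, the correlation of ENSRNOG00000048676 ran from -0.80 to -0.49, that of ENSRNOG00000011884 from -0.62 to -0.44, that of ENSRNOG00000022586 from 0.22 to 0.64 and that of ENSRNOG00000021732 from 0.070 to 0.59.

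**Figure D4:**
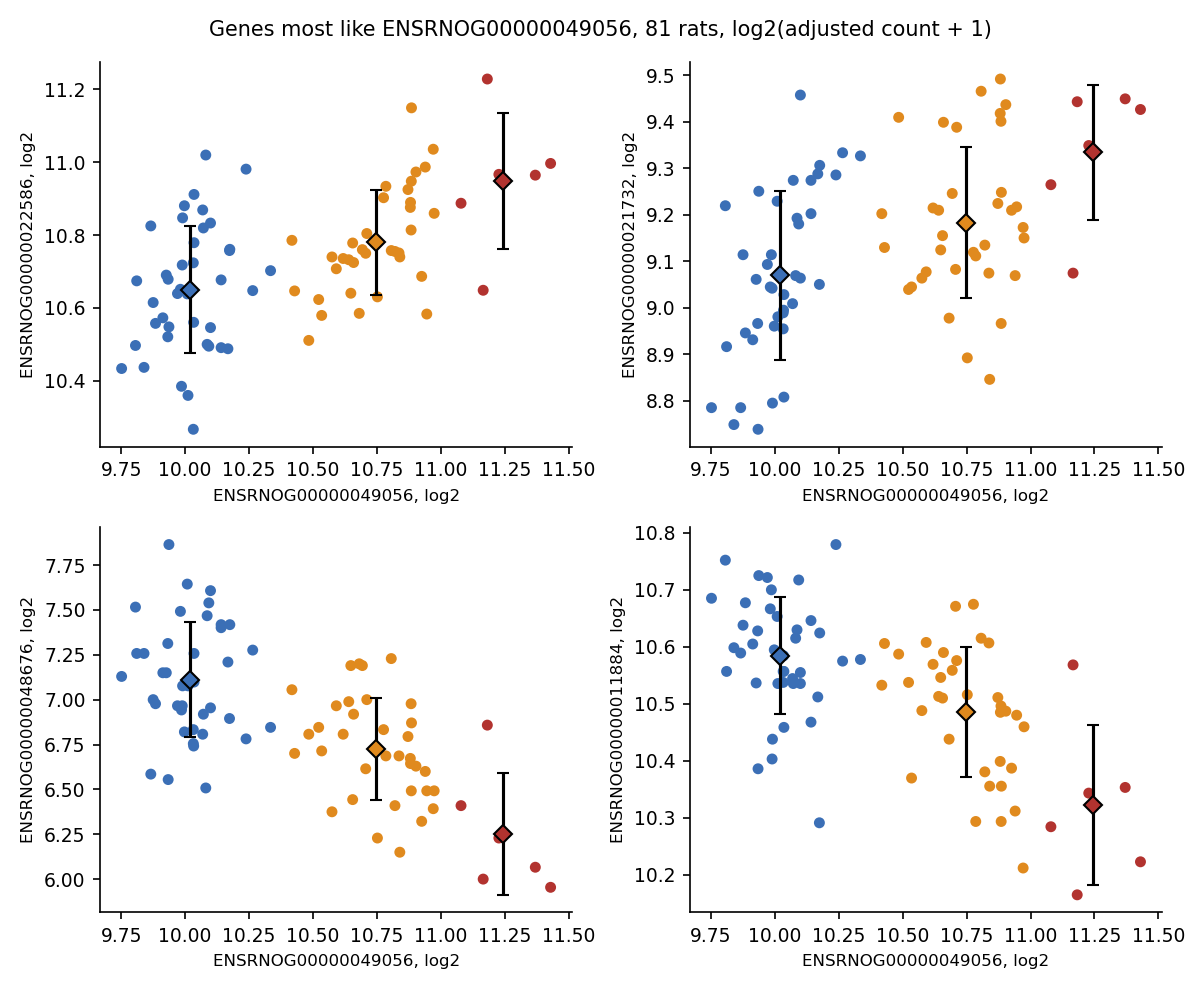
Log2 values of the 4 genes most like ENSRNOG00000049056 (vertical axes) against its own log2 value (horizontal axes), 1 point per rat, colored by class (blue low, orange middle, red high), with class means ± SD of the other gene as diamonds. ENSRNOG00000048676 (lower left) descends from a mean of 7.11 in the low class to 6.25 in the high class, while ENSRNOG00000021732 (upper right) rises within the low class too.

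None of the 4 genes separated the classes without overlap, and a mixture of 1 component described each of them best. Rat batch differed for 3 of them, ENSRNOG00000022586 (limma adjusted p-value 1.17e-08), ENSRNOG00000011884 (3.93e-06) and ENSRNOG00000048676 (0.0045), and not at the threshold for ENSRNOG00000021732 (0.273), again with 57.6% of genes passing. No other row held the same values as ENSRNOG00000049056.

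The study mapped regulatory variants with the first 20 expression components as covariates, and the gene was therefore also examined after their removal. The 20 components held 52.3% of its variance, against a median of 69.4% over genes, and the component holding most was component 5 with 10.4%. Its SD fell from 0.44 to 0.31. A mixture of 1 component then described it best. The classes drawn before this step still stood in the same order, at -0.23 ± 0.18 (SD, n = 40), 0.20 ± 0.21 (SD, n = 35) and 0.33 ± 0.36 (SD, n = 6) on the log2 scale around the mean, and held 54.3% of the variance that remained.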

How the data were processed

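Per the labels and the study's methods, the authors trimmed reads with cutadapt, estimated gene counts on the Ensembl rat transcriptome (Rnor_6.0) with RSEM, applied upper-quartile adjustment with DESeq2, removed poor libraries and low genes, and deposited log2 values of the adjusted count plus 1. Versions were not given in the sources used here. RSEM shares reads that match several genes by estimate, so a level can include reads of a near copy.

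Columns were matched to samples by title, and rats were grouped by labelled batch and sex. Linear models with an intensity trend were fitted to all 17252 genes with limma 3.58.1 (R 4.3.3), with Benjamini-Hochberg adjustment of p-values over all of them and a threshold of 0.05. P-values measure the spread between single rats. Mixtures were fitted with mclust 6.1.1. Depth was the total adjusted count divided by the adjusted counts that 1 read was worth. The depth, mixture, limma and correlation steps were tested on simulated data, in which the test of column run with rat batch in the model recovered few of the planted changes. Named genes were the 2 most positively and the 2 most negatively correlated. The gene, classes and tests were chosen with earlier results of these data known.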

Additional observations from a re-analysis of the deposited data

How the results depend on the processing

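The number of modes was 3 in 12 of 17 other settings, all with a common SD on a log2 scale. In some of these, 2 components scored nearly as high as 3. The BIC was -62.76 for 2 and -62.52 for 3 without rat batch 2, and -69.00 and -68.06 on residuals after rat batch and sex. The widest lead of 3 components, -76.80 against -82.07, came without the library of lowest depth. The number of modes was 2 with unequal variances, 2 in column run 2 alone, 2 in column run 3 alone, 5 on adjusted counts and 1 after the first 20 components, a setting added after the data were seen. With unequal variances the middle and high classes held 24 and 18 rats and the offset of the middle class was 1.09; after the 20 components the classes held 7, 56 and 18 rats and the offset was -0.24. Column run 1 alone gave 4 high rats and an offset of 0.10, and residuals after column run gave an offset of 0.12. Adjusted counts and runs 2 and 3 alone gave no 3 filled classes. Genes differing by rat batch fell from 9945 to 476 with column run as a covariate. Genes differing by sex, 34, were 18, 19 and 20 without rat batch 3, 4 and 6. Genes differing by run, 2892, were 10592 without rat batch as a covariate, also added later. The 7 genes with an absolute correlation of at least 0.5 became 33 by Spearman correlation, 44 without covariates, 12 with column run as a covariate, 292 and 1102 in runs 1 and 2 alone, 28, 49 and 15 without rat batch 3, 4 and 6, and 11 without the library of lowest depth, added later. The share of genes with a larger gain in BIC, 0.65%, was 1.06% on deposited values and 1.94% without the filter on low genes. The causes were not tested. For the gene itself, the adjusted p-value (limma) ranged from 0.0057 to 0.826 for rat batch, from 0.026 to 0.4933 for column run and from 0.662 to 1.00 for sex. No paired analysis was possible because replicate numbers only name the rats of a batch, and in the IL table each rat has 1 column. With 6 rats, the high class limits what its position and size can show.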
